A study of Mus musculus with 2 samples.

Results

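The footprints described here were 25 bp or wider in both DNase-seq libraries of mouse urinary bladder. They were selected on their width: an autosomal footprint of each library had to reach 25 bp, and the pair had to overlap by at least 50% of both widths. The rule found 14382 wide shared footprints among 80074 autosomal footprints shared at that overlap. A further 54090 shared footprints were under 25 bp in both libraries, and these narrow footprints serve as the comparison below. The remaining 11602 were wide in 1 library only.

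Tissue came from male mice of 14 days of the hybrid strain B6CASTF1/J, a first-generation cross of C57BL/6J and CAST/EiJ that was shared by all samples. The label of replicate 1 speaks of a male, without a number of animals, whereas 3 males were pooled for replicate 2 by its label. The 2 libraries form 1 group with no treatment and no contrast, so no test over samples was possible, and the values below are counts and shares with the value of each library where it can be given. Intervals are Wilson 95% intervals, which cover counting error only; footprints of 1 library share its depth and its animals and are not replicates.

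DNase I cuts accessible DNA, and a protein bound to it shields a short stretch from cutting, which appears as a footprint inside an accessible region. The width of a footprint depends in part on how much DNA the protein covers. CTCF is a zinc finger protein that reads a long core sequence and, at a subset of its sites, contacts further bases upstream of that core; with cohesin it anchors chromatin loops. REST is a repressor that keeps neuronal genes silent outside the nervous system. NFI proteins bind a palindrome as dimers and act in epithelium, muscle and stroma. NRF1 binds GC-rich promoters of housekeeping genes, among them genes for mitochondrial proteins.

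The sequences below show what wide shared footprints hold. Each is the stretch covered by the footprint of either library, taken from the reference assembly GRCm38.p6 (mm10), in 5′ to 3′ direction on the strand of the motif. Capitals mark the motif match. They are the C57BL/6J reference letters; the CAST/EiJ allele was not analysed here. Each is named by the nearest protein-coding gene. The first 3 carry the CTCF core and are among the 5 CTCF members in the strongest accessible regions.
Med13, chr11:86358440-86358469, minus strand: cggggcatCCAGCAGATGGCgccatgttag
Cbl, chr9:44234236-44234279, minus strand: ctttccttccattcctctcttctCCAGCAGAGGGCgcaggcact
Gm31371, chr8:20122176-20122220, plus strand: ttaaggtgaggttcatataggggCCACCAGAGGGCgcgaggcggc

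The next 3 are CTCF members whose footprint reached far 5′ of the core in both libraries. They hold the upstream bases described with the CTCF results, with up to 2 mismatches.
Top1mt, chr15:75679454-75679496, minus strand: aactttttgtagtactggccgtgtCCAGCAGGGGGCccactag
Parp16, chr9:65196942-65196985, plus strand: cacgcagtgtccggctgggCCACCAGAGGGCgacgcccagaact
Ptma, chr1:86501759-86501804, plus strand: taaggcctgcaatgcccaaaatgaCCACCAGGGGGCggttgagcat

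For REST, 3 members at neuronal genes show the match of 16 bases.
Npas4, chr19:4989156-4989185, plus strand: gggatTCAGCACCGCGGACAGctcctgcga
Chgb, chr2:132781788-132781821, plus strand: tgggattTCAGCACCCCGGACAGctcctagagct
Snap25, chr2:136714334-136714362, plus strand: accttTCAGCACCGCGGACAGcgatccgg

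For NFI, 3 members show the paired half-sites TGGC and GCCA.
Bahcc1, chr11:120232771-120232801, plus strand: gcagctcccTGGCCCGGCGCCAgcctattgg
Rab40c, chr17:25919889-25919914, plus strand: tgctacTGGCCCGCTGCCAccctctt
Gm42791, chr5:149006843-149006876, plus strand: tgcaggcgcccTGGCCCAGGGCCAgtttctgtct

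For NRF1, the first 2 members show a match near the edge of a footprint far longer than the motif, and the third a match nearer its middle.
Nup50, chr15:84923174-84923221, plus strand: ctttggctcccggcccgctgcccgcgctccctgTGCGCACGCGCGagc
Hspa8, chr9:40800926-40800974, plus strand: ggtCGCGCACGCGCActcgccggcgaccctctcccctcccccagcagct
Gatd1, chr7:141414220-141414246, plus strand: gggggcagttTGCGCATGCGCAtgggg

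The last 2 come from tRNA genes and carry the core of the B box, the internal promoter element that the polymerase III factor TFIIIC binds; the nearest protein-coding genes are Polr3e and Polg.
Polr3e, chr7:120917565-120917603, plus strand: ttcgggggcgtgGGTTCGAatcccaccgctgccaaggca
Polg, chr7:79466451-79466496, plus strand: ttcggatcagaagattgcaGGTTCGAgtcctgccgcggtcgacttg

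The libraries differed in how many footprints they held. Replicate 1 had 324364 autosomal footprints, of which 40529 (12.5%) were wide, and replicate 2 had 196314, of which 16720 (8.52%) were wide. Peak signals were whole multiples, within 0.05 steps, of a step that was 1.54 times as large in replicate 2 as in replicate 1; if 1 step is 1 cut scaled to depth, which no label records, replicate 1 was the deeper library. The accessible regions matched the labelled tissue in part: peaks of both libraries lay within 1 kb of a transcription start site (TSS) for 5 of 6 urothelial markers, 5 of 5 smooth muscle markers and 4 of 4 stromal markers. The same held for 1 of 3 endothelial, 1 of 3 nerve and glia, 0 of 3 immune and 0 of 3 liver markers. Fewer cells of a type and less accessibility per cell cannot be told apart in such bulk tissue.

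Of the wide footprints of replicate 2, 86.0% were members. In replicate 1 the share was 35.5%. A further 24.3% of its wide footprints had a partner under 25 bp in replicate 2, 12.8% overlapped 1 footprint by less than the rule asks, 10.7% overlapped 2 or more footprints, and 16.7% overlapped none. In replicate 2 the corresponding shares were 10.4%, 1.48%, 1.67% and 0.431%. Most wide footprints of the smaller library thus had a wide partner in the larger one, and most wide footprints of the larger one did not.

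Members had a median width of 32 bp in replicate 1 (quartiles 29 and 38 bp, highest 75 bp) and 30 bp in replicate 2 (quartiles 27 and 34 bp, highest 69 bp). Narrow footprints had medians of 13 and 12 bp. The ends of members matched closely: both ends lay within 3 bp of each other in 62.2% of pairs, and in 52.9% of narrow pairs. Members were wider in replicate 1 in 63.4% of pairs and wider in replicate 2 in 23.5%. All members and 99.9% of narrow footprints lay wholly in stretches at an FDR of 0.05 or lower in replicate 1. At 0.001 or lower the shares were 99.9% of members and 95.65% of narrow footprints in replicate 1, and 97.1% and 85.1% in replicate 2. Footprints and FDR track come from the same library, so these shares are a description.

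**Figure D1:**
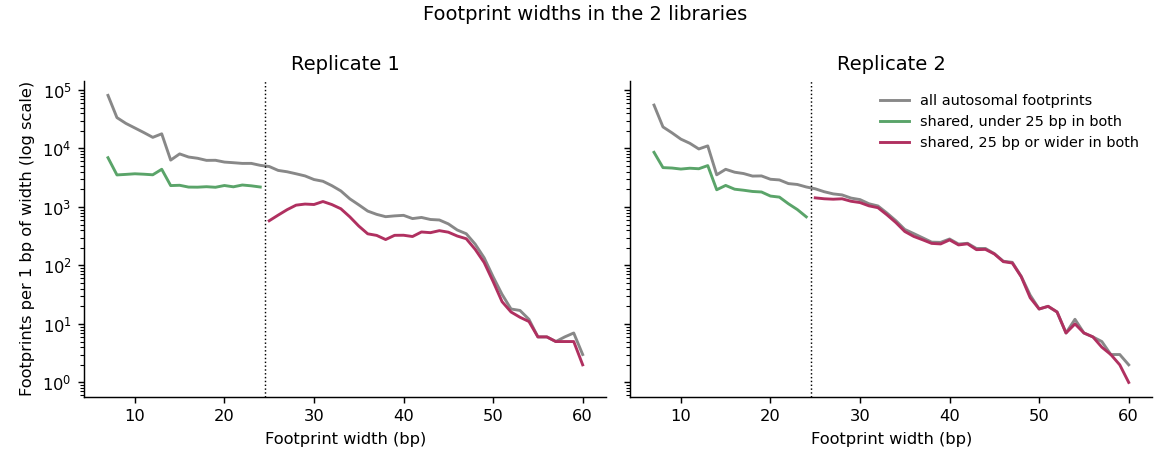
Number of footprints (log scale) at each width up to 60 bp in replicate 1 (left) and replicate 2 (right), for all autosomal footprints and for those shared at 50% overlap; the dotted line is the limit of 25 bp. In replicate 2 the curve of members runs close to that of all wide footprints (86.0% shared), while in replicate 1 it runs below it (35.5% shared).

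Values on either side of the limit of 25 bp were close for CTCF, NFI and promoters, less so for NRF1, and not for REST. The NRF1 and REST shares at a single width rest on few matches. Among pairs whose smaller width was 24 bp, just outside, the share with a CTCF match was 9.40% (n = 2021), and at 25 bp, just inside, it was 9.86% (n = 1835). For NFI the shares were 6.43% at 24 bp and 5.23% at 25 bp, and for NRF1 0.841% and 0.545%. For REST they were 0.297% at 24 bp, 1.14% at 25 bp and 0.431% at 26 bp (n = 1626). The share of pairs centred in promoters was 49.2% at 24 bp and 48.3% at 25 bp.

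Members lay near a TSS less often than narrow footprints. Of the 14382 members, 6188 (43.03%, interval 42.2% to 43.8%) were centred within 1 kb of an annotated TSS, against 31349 narrow footprints (58.0%, 57.5% to 58.4%) and 54.2% of all shared footprints. A further 3.69% lay in exons, 25.04% in introns and 28.3% between genes, against 2.96%, 19.8% and 19.3% of narrow footprints. The median distance to the nearest TSS was 2110 bp for members and 322 bp for narrow footprints. The difference in promoter share was not found in each library: all wide footprints of replicate 2 had 45.6% in promoters and its narrower ones 50.6%, but in replicate 1 the shares were 39.3% and 37.3%.

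The promoter share went with CTCF. Members with a CTCF match, allowing 1 mismatch, had 16.6% in promoters, and members without one had 60.4%, next to 58.5% of narrow footprints without one. Within promoters, 75.1% of members lay upstream of the TSS, against 64.2% of narrow footprints, and 45.1% lay in the 100 bp just upstream, against 37.6%. The median distance from the TSS was similar for promoter members (74.5 bp) and promoter narrow footprints (70.3 bp).

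**Figure D2:**
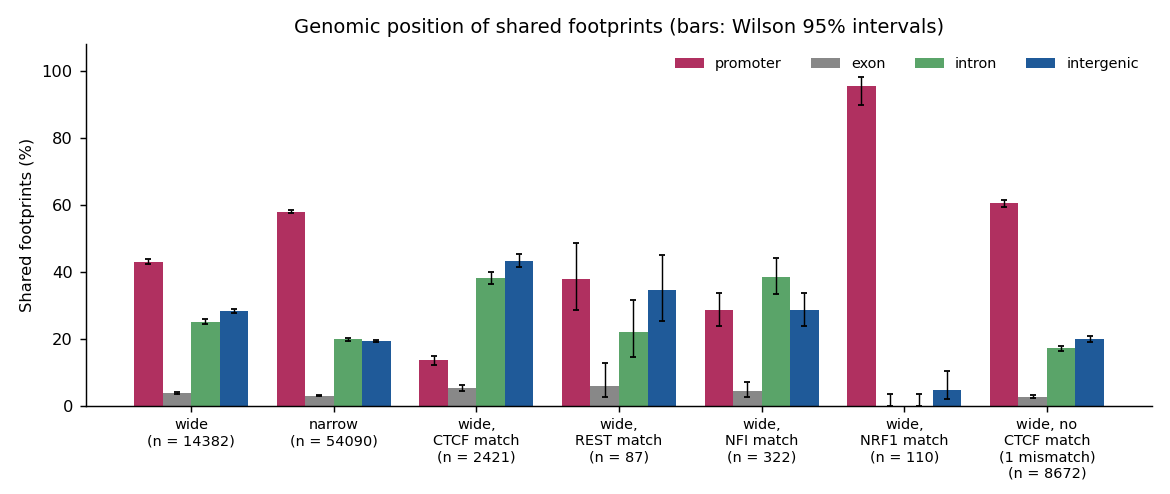
Share of shared footprints in promoters (within 1 kb of a TSS), exons, introns and between genes, for members, narrow footprints and members split by motif; bars are percentages with Wilson 95% intervals. NRF1 members are almost all in promoters (95.5%), CTCF members mostly are not (13.5%).

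Members as a whole also lay in stronger accessible regions. Of all members, 97.7% fell in a region with peaks of both libraries, against 91.4% of narrow footprints. The median signal of a member's region was 3.84 in replicate 1 and 2.72 in replicate 2, against 2.78 and 2.18 for narrow footprints. By the mean rank of signal, 64.4% of members lay in the top quartile of shared regions, against 47.6% of narrow footprints. The higher signal was that of members without a CTCF match of up to 1 mismatch, with medians of 5.56 and 4.39. Of these, 73.8% lay in the top quartile. Members with such a match had medians of 2.83 and 1.89, and 50.2% lay there. For exact CTCF matches, medians were 2.86 and 1.90 in members and 1.21 and 0.903 in narrow footprints. A wide shared footprint was present in 45.4% of the top quartile of regions and in 0.189% of the bottom one. Over all members, footprint width and region signal therefore moved together, while CTCF members were near narrow footprints in signal. The separate parts of width and signal in the results below were not tested, except where shares are given by signal.

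CTCF had the largest difference in share between members and narrow footprints among the 26 motifs searched. Its 12-base core matched 2421 members (16.8%, interval 16.2% to 17.5%) and 278 narrow footprints (0.514%), while 4.43% of all shared footprints held it. In the single libraries, 10.8% of all wide footprints of replicate 1 and 14.8% of those of replicate 2 held the core, against 0.447% and 0.837% of the narrower ones. A wider footprint can hold more matches, so the count was repeated in windows of 31 bp at the centre of each pair: the core was then in 16.9% of members and 0.634% of narrow footprints. In windows of the same length in shared regions that no footprint of either library touched, it was in 0.0248% (of 225378 windows). Such windows leave out matches in footprints by their choice and were not matched for signal or position. Their shares, here and for the other motifs, are therefore a description.

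Allowing 1 mismatch, 5710 members (39.7%) and 885 narrow footprints (1.64%) had a CTCF match, against 10.8% of all shared footprints. CTCF members were mostly distal: 38.1% lay in introns, 43.3% between genes and 13.5% in promoters, and their median distance to a TSS was 7074 bp. By signal, the core was in 20.6% of members in the second quartile of shared regions from below, 25.8% in the third and 13.3% in the top one, and in 1.58%, 0.663% and 0.113% of narrow footprints there. Members held it more often than narrow footprints in all 3 quartiles.

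Read from the sequence, the relation was strong as well. Shared regions held 4708 core matches, of which 51.4% (49.95% to 52.8%) lay in a wide shared footprint, 5.99% in a narrow one, 18.3% in a pair wide in 1 library, 21.7% in an unpaired footprint and 2.68% in no footprint. The share in a wide shared footprint was 0.310% in the lowest quintile of regions, 34.2% in the third and 84.2% in the top one.

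**Figure D3:**
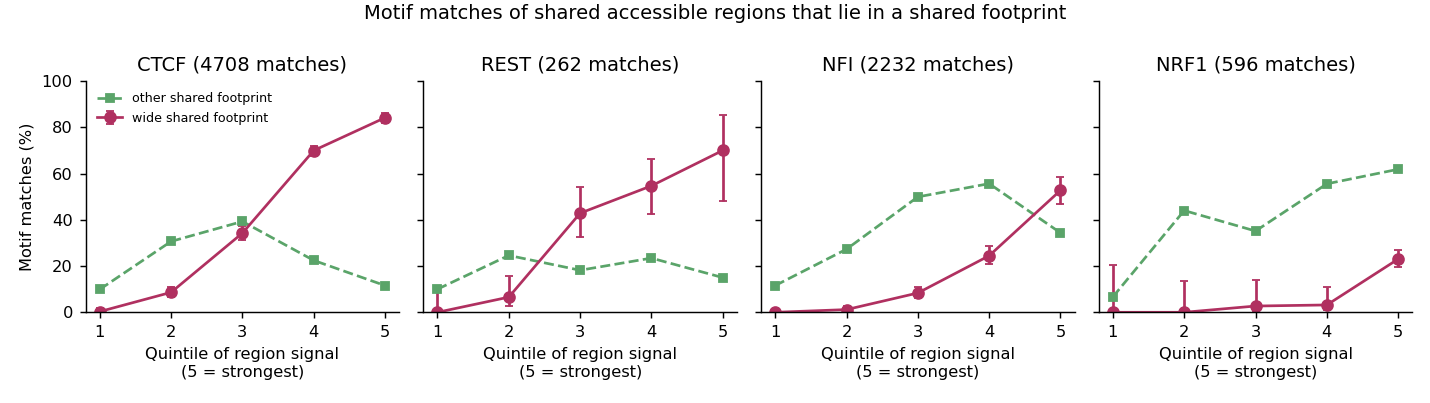
Share of motif matches in shared accessible regions that lie in a wide shared footprint (circles, with Wilson 95% intervals) or another shared footprint (squares), by quintile of region signal ranked over both libraries, for CTCF, REST, NFI and NRF1. In the top quintile 84.2% of CTCF matches lie in a wide shared footprint, but 23.03% of NRF1 matches.

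Among CTCF members with 1 exact match, the footprint reached a median of 11.5 bp 5′ of the core's centre in replicate 1 and 10.5 bp in replicate 2, and 17.5 bp 3′ in both. Widths were not spread evenly, however. In each library the share with a core match rose to a peak at 31 to 33 bp (16.8% and 20.4%), fell at 37 to 39 bp (5.96% and 8.69%) and rose again at 43 to 45 bp (16.0% and 14.9%).

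**Figure D4:**
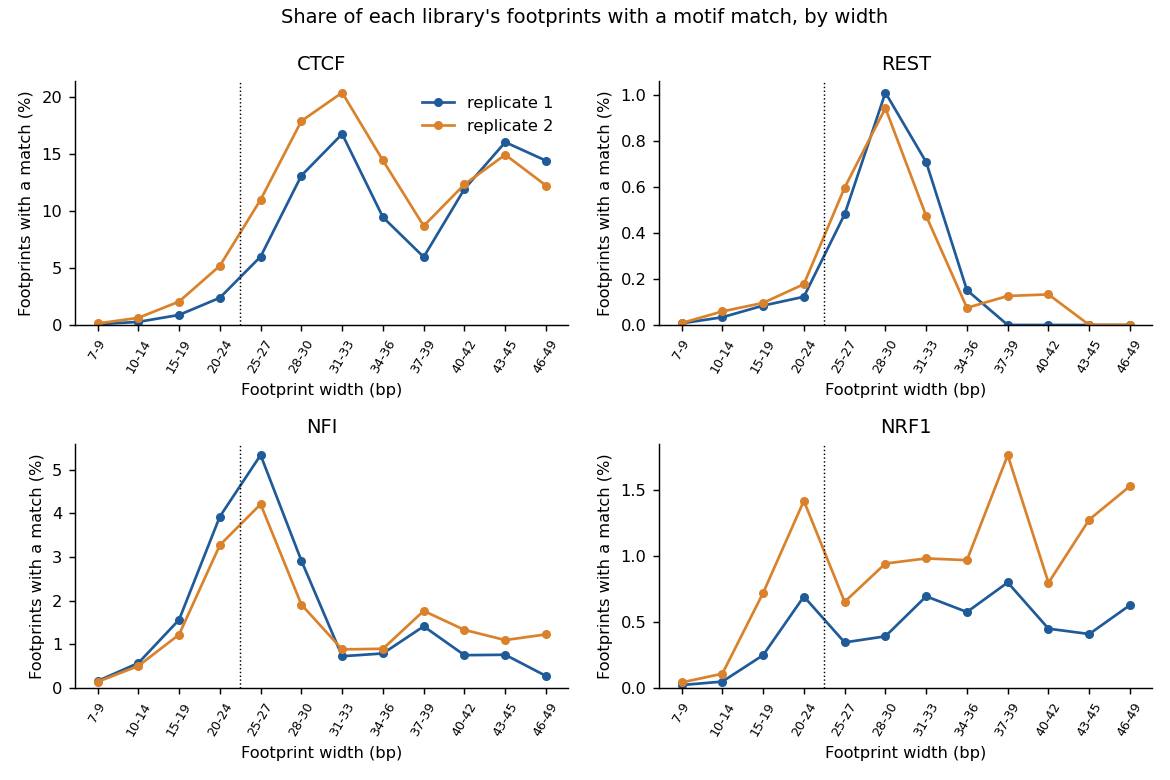
Share of all autosomal footprints of each library that hold a match of CTCF, REST, NFI or NRF1, by footprint width; the dotted line is the limit of 25 bp. CTCF has peaks at 31 to 33 bp and near 43 to 45 bp in both libraries, REST at 28 to 30 bp and NFI at 25 to 27 bp.

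A group of CTCF members extended further on the 5′ side. Of 5562 members with 1 match of up to 1 mismatch, the footprint reached at least 20 bp 5′ of the core's centre in 1520 (27.3%) in replicate 1, in 936 (16.8%) in replicate 2 and in 860 (15.5%, interval 14.5% to 16.4%) in both; 91.9% of those of replicate 2 were extended in replicate 1 too. This limit was chosen after the widths were seen. The 3966 members below that limit in both libraries are called compact. The 736 that reached it in 1 library only are in neither group. The groups were split by 5′ reach, so their order on that side was fixed by the split, and their widths are not independent of it. Extended members had median widths of 44 and 42 bp and reached 27.5 and 26.5 bp 5′. Compact members had median widths of 31 and 29 bp and reached 11.5 and 10.5 bp. On the 3′ side the order was the other way, with medians of 15.5 and 14.5 bp for extended and 18.5 and 18.5 bp for compact members.

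The 2 groups lay in like places, with 18.02% of extended and 16.8% of compact members in promoters. Median region signals were 3.31 and 2.11 for extended members, and 2.74 and 1.85 for compact ones. More than 50% of the bases were soft-masked as repeats in 16.3% of extended and 5.72% of compact members.

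Their sequences differed upstream of the core, and also within it and downstream of it. Position 0 is the core's first base. At position -16 the most frequent base was G in 79.4% of extended members and 32.5% of compact ones, at -12 it was T in 82.2% and 37.7%, and at -10 it was C in 78.5% and 35.5%. From position -17 to -9, a stretch chosen after these shares were seen, the most frequent base where it reached 40% in extended members spelled TGCAGTNCC. The bases at -3 to -1 also reached 40%, with G at -1 in 53.7% of extended and 45.9% of compact members. Up to 2 mismatches from it were found in 501 of 860 extended members (58.3%) and in 96 of 3966 compact ones (2.42%). The element was spelled from the extended members, so its count among them is a description. Downstream of the core, C at position 13 was in 39.2% of extended and 62.3% of compact members, and G at 18 in 33.3% and 51.3%. Within the core, the most frequent base at position 7 was A in 55.0% of extended members and G in 63.0% of compact ones. These positions were picked by their values.

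**Figure D5:**
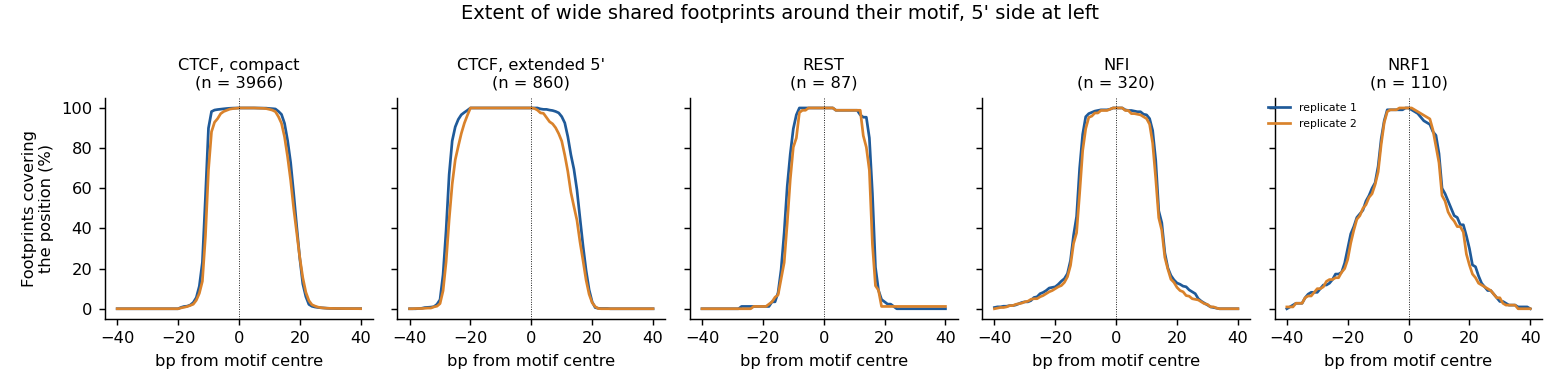
Share of wide shared footprints that cover each position from the motif centre (0, 5′ side at left), in both libraries, for compact and extended CTCF members (up to 1 mismatch), REST, NFI and NRF1 (exact matches). Compact members reached less than 20 bp 5′ of the core's centre in both libraries, and extended ones at least 20 bp. Their difference on that side (medians 11.5 and 27.5 bp in replicate 1) was therefore fixed by the split. For NFI, a palindrome, left is the lower reference coordinate.

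The CTCF members in the strongest regions, by mean rank of signal, are named by their nearest protein-coding TSS. They lay near Gm31371, Stag1, which encodes a cohesin subunit, Med13, which encodes a Mediator subunit, Gzf1, which encodes a zinc finger protein, and Cbl, which encodes an E3 ubiquitin ligase. The first lay 218810 bp from that TSS, although within 1 kb of another annotated TSS, and the other 4 lay 26 to 853 bp upstream. The member at Stag1 was 44 bp wide in replicate 1 and 40 bp in replicate 2, and that at Med13 was 30 and 28 bp wide.

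REST matches were few, and members held most of those in shared footprints. The motif matched 87 members (0.605%, interval 0.491% to 0.746%) and 14 narrow footprints (0.0259%), with 0.171% over all shared footprints. In the single libraries it was in 0.538% and 0.550% of wide footprints and in 0.0352% and 0.0440% of narrower ones. In fixed windows of 31 bp the shares were 0.605% and 0.0444%, and in windows without a footprint the share was 0.00754%.

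Of 262 REST matches in shared regions, 86 (32.8%, 27.4% to 38.7%) lay in a wide shared footprint and 13.4% in none. The median width of REST members was 30 bp in replicate 1 and 28 bp in replicate 2, and they reached 12.5 and 11.5 bp 5′ and 16.5 and 15.5 bp 3′ of the motif's centre. Raising the minimum width to 30 bp left 0.211% with a match. They lay in weaker regions than members in general, with a median signal of 1.96 in replicate 1 and 1.25 in replicate 2 and 25.3% in the top quartile of regions. Of the 87, 37.9% lay in promoters and 34.5% between genes.

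Neuronal genes stood near them. A REST member lay within 10 kb of the gene body for 7 of 23 genes on a list of REST targets of neurons, against 0.409% of all autosomal protein-coding genes (85 of 20807). The list was made of REST targets and chosen with earlier results of these data known, so this count is a description. The 7 genes are named here. They were Chga and Chgb, which encode granins of secretory vesicles, Snap25, a SNARE of synaptic vesicle fusion, Stmn2, a microtubule regulator, Gria2, an AMPA receptor subunit, Chrnb2, a nicotinic receptor subunit, and Kcnh2, a potassium channel. Grin1 and Sez6 had a REST match only in footprints that were not wide in both libraries.

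In the strongest regions the REST members lay near Gm20715, Npas4, Chgb, Lhx3 and Snap25. Npas4 encodes an activity-dependent neuronal transcription factor and Lhx3 a LIM homeodomain factor. The member at Npas4 lay 733 bp downstream of the TSS and was 30 and 27 bp wide, that at Chgb 527 bp downstream and 33 and 32 bp wide, and that at Snap25 870 bp downstream and 29 bp wide in both. Others of the 87 lay at the dopamine receptor gene Drd2 (581 bp downstream of the TSS) and at Crh, which encodes corticotropin-releasing hormone (758 bp downstream); these 2 were picked after their values were seen.

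NFI matches straddled the limit of width. The palindrome matched 322 members (2.24%, 2.01% to 2.49%) and 430 narrow footprints (0.795%), with 1.44% over all shared footprints. The median width of shared footprints with a match was 24 bp, just under the limit, and of all shared footprints with a match 27.9% were members. Within single libraries the share was highest at 25 to 27 bp, with 5.34% in replicate 1 and 4.21% in replicate 2, and at 31 to 33 bp it was 0.722% and 0.879%. Windows without a footprint held the palindrome in 0.0599%. With a minimum width of 30 bp the order turned, with a match in 0.906% of wide and 1.51% of narrow shared footprints.

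NFI members reached 12 bp 5′ and 13 bp 3′ of the motif's centre in both libraries, by the medians. The palindrome reads the same on both strands and was counted on the plus strand. Here 5′ and 3′ are thus sides of the reference, not of the motif. They lay in introns in 38.5%, between genes in 28.6% and in promoters in 28.6%. Narrow footprints with a match lay in weaker regions: 11.2% of them and 59.6% of the NFI members were in the top quartile. Of 2232 matches in shared regions, 14.3% lay in a wide shared footprint, but in the top quintile of regions the share was 52.7% (47.0% to 58.4%).

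The NFI members in the strongest regions lay near Bahcc1 (at 2 places, 161 and 1255 bp upstream of the TSS), Rab40c, Tef and Gm42791. The last lay 11712 bp upstream of that TSS, although within 1 kb of another annotated TSS. Tef encodes a transcription factor of the PAR bZIP family with circadian expression, and Rab40c a small GTPase. Widths were 31 bp in both libraries at the nearer Bahcc1 site, 26 bp in both at Rab40c, and 32 and 29 bp at Tef.

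NRF1 had the smallest difference in share of the 4 motifs. It matched 110 members (0.765%, 0.635% to 0.921%) and 259 narrow footprints (0.479%, against 0.582% over all shared footprints). In fixed windows of 31 bp the shares were 0.779% and 0.512%, with 0.00932% in windows without a footprint. The order turned at a reciprocal overlap of 80%, with 0.841% of wide and 1.08% of narrow footprints, and outside promoters, with 0.0610% and 0.128%. Shared footprints with a match had a median width of 22.5 bp, and 42.1% of the 596 matches in shared regions lay in narrow footprints and 18.1% in wide ones.

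Nearly all NRF1 members were in promoters, 105 of 110 (95.5%, 89.8% to 98.0%), at a median of 39.5 bp from the TSS; for narrow footprints with a match the promoter share was 88.8%. The median region signal was 8.33 in replicate 1 and 7.65 in replicate 2, above that of members in general. Matches that fit the NRF1 consensus on both strands were counted on the plus strand, which held 68.2% of these members. For such matches 5′ is a side of the reference. Among these members the 5′ reach had quartiles of 9.5 and 20.5 bp in replicate 1 and 9.5 and 19.5 bp in replicate 2. Over all 461 shared footprints with 1 NRF1 match, whatever their width, the quartiles were 8.5 and 12.5 bp in replicate 1 and 8.5 and 11.5 bp in replicate 2, so the wider spread is that of members selected on width.

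The NRF1 members in the strongest regions lay 25 to 213 bp upstream of the TSSs of Nup50, a nuclear pore gene, Hspa8, a constitutive chaperone gene, Parp6, Gatd1, and Vapb, which encodes a protein of the endoplasmic reticulum membrane. The Nup50 member was 48 and 47 bp wide and that at Hspa8 48 and 45 bp, while that at Gatd1 was 26 bp in both. Of 20 mitochondrial NRF1 targets, 0 had an NRF1 member within 10 kb of the gene body, against 0.831% of all autosomal protein-coding genes (173 of 20807); with 20 genes, such a share leaves few to be seen. Polrmt, the mitochondrial RNA polymerase, Sdhd and Tomm20 had a match in shared footprints that were not wide in both libraries.

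Of the 26 motifs searched, none matched 8929 members (62.1%) and 46348 narrow footprints (85.7%). A narrow footprint has less room for a match, and this share was not counted in fixed windows. Among motifs beyond the 4 named, the cyclic AMP response element (CRE, TGACGTCA) was in 169 members (1.18%) and 0.364% of narrow footprints (0.608% of all shared footprints), and the NFY motif in 256 (1.78%) and 0.462% (0.766% of all). The KLF/SP motif was in 1161 members (8.07%) and 6.90% of narrow footprints (7.51% of all). In fixed windows of 31 bp the response element kept its order (1.20% and 0.449%), and NFY was in 1.86% and 1.48%. KLF/SP was lower in members there (8.18% and 8.89%), as were, among others, ETS (CCGGAAG, 1.36% and 1.82%), AP-1 (0.647% and 1.43%), TEAD (GGAATG, 1.29% and 1.76%) and TFAP2 (3.08% and 3.65%).

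Genes for tRNAs held a small group of members. Of the members, 88 (0.612%) were centred in a tRNA gene of RefSeq, against 47 narrow footprints (0.0869%) and 0.204% of all shared footprints. They covered 88 of 386 autosomal tRNA genes (22.8%), or 47.3% of the 186 whose centre lay in a shared region. The footprint's centre lay a median of 57.6 bp from the gene's 5′ end (quartiles 55 and 60.9 bp) in genes of median length 72 bp, and median widths were 37 bp in replicate 1 and 31 bp in replicate 2. The B box core GGTTCGA was in 79 members, 73 of them in tRNA genes, and in 12 narrow footprints. This element was looked for after 8-base words had been counted. tRNA genes have near-identical copies, so reads could be assigned to the wrong copy.

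Among 8-base words in at least 40 members without a CTCF match of up to 1 mismatch, gggttcga had the highest ratio to narrow footprints per position, at 47 members and 2 narrow footprints. The word acggacag was in 54 and 4, and gtgctgaa in 87 and 7. Both fit part of the REST consensus, gtgctgaa when read on the other strand. How many of their members held the whole consensus was not counted. These words were picked by their values and are given as a description.

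Of the 5 widest members without any of the 26 motifs, 4 are described. The first of these, in an intron 16816 bp from the TSS of Col18a1, a collagen gene, was 65 bp in both libraries and held 2 CTCF matches when 1 mismatch was allowed.
Col18a1, chr10:77130730-77130794, plus strand: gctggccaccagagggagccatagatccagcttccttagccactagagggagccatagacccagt
The other 3 lay 7252 bp upstream of the TSS of Eef2k (64 bp in both), 20455 bp downstream of that of Peak1 (54 and 69 bp) and 684 bp upstream of that of Smarcc2, a chromatin remodelling gene (60 and 62 bp). None of these 3 held a CTCF match of up to 1 mismatch. The one named by Peak1 lay within 1 kb of another annotated TSS. Its region had a signal of 1.30 in replicate 1 and 2.98 in replicate 2.

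Of 20807 autosomal protein-coding genes, 4729 (22.7%) had at least 1 wide shared footprint within 1 kb of a TSS; 3414 had 1, 1024 had 2 and 11 genes had 5 or more. The genes with most were H2-DMa with 7, Dazap1 and Rab11b with 6, and Fgd6, Fntb, Hexim2, Jarid2, Mex3c, Shb and Tmpo with 5, which are 7 of the 8 genes with 5 in alphabetical order. H2-DMa encodes a chaperone of MHC class II, Dazap1 an RNA-binding protein, Rab11b a GTPase of recycling endosomes, Jarid2 a subunit of Polycomb complex PRC2 and Tmpo a protein of the nuclear lamina. Narrow shared footprints at these genes numbered from 0 at Rab11b and Fgd6 to 15 at H2-DMa.

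Among gene lists, 11 of 18 housekeeping genes had a wide shared footprint within 1 kb of a TSS, among them Eef2 and Gapdh with 3 each, Rplp0 with 2 and Actb with 1. The share was 8 of 20 for mitochondrial NRF1 targets, with 2 each at Atp5b, which encodes a subunit of ATP synthase, and Tomm34, and 8 of 23 for REST targets of neurons, with 1 each at Chga, Chgb, Chrnb2 and Gria2. Of the stromal genes 7 of 23 had one, led by Gli1, a transcription factor of hedgehog signalling, with 3, and Pdgfra, a growth factor receptor of fibroblasts, and Vim, an intermediate filament gene, with 2 each. Smooth muscle genes had 4 of 19, with 2 at Hspb6 and 1 each at Myh11, the smooth muscle myosin heavy chain gene, Tpm1 and Tpm2. Urothelial genes had 4 of 20, with 1 each at Elf3 and Foxa1, which encode epithelial transcription factors, Sfn, and Upk2, which encodes a uroplakin. Among all genes with a shared region within 1 kb of a TSS the share with a member was 33.7%, and in these lists 8 of 20 such REST targets, 22.2% of urothelial, 21.1% of smooth muscle and 30.4% of stromal genes had a member.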

How the data were processed

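DNase-seq was done on bladder tissue of 1 group of 2 biological replicates. For each library the authors deposited footprints, peaks and an FDR track on mm10, made from that library alone per the notes deposited with the files; no source used here names the callers. The peak signal, the authors' own density, was used as deposited. The deposited FDR track gives the authors' q-value (an adjusted p-value) for stretches of positions. All footprints carry the same deposited value, 0.01, and only their positions were used.

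Footprints of the 19 autosomes were paired by reciprocal overlap, each in at most 1 pair. Peaks that overlapped were joined into regions, and regions with peaks of both libraries (71323) are called shared; a region has the signal of its strongest peak in each library, and regions were ranked by the mean of their ranks, and quartiles and quintiles are of that scale. Positions follow GENCODE M21 and sequence GRCm38.p6; tRNA genes are those of RefSeq. The 26 motifs were consensus sequences written from general knowledge, searched on both strands, with the centre of the match inside the footprints of both libraries; matches of overlapping motifs were counted for each. The REST consensus spans 16 bases, NFI is TGGC and GCCA with 5 bases between, and a palindrome was counted once, on the plus strand. Its 5′ and 3′ sides are therefore those of the reference. A match is a description, not a binding site.

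Members and lists were chosen with earlier results of these data known. Named genes were, for each motif, the 5 members in the strongest regions with their nearest protein-coding TSS, the 5 widest members without a listed motif (1 of them is not reported here), the 10 genes with most members within 1 kb of a TSS, and up to 4 of each gene list. Printed sequences were taken from these outside annotated UTRs and chromosome 18, and for extended CTCF members the first 3 with the upstream element within 2 mismatches. Alternatives were minimum widths of 20 and 30 bp, 80% overlap, each library alone, promoter windows of 500 and 2500 bp, fixed windows, 1 mismatch, footprints outside promoters and the top quartile of shared regions. Depth per library is not given; the median peak signal was 134 steps in replicate 1 and 112 in replicate 2. Python 3.11.15, numpy 2.4.6, pandas 2.3.3, scipy 1.17.1, matplotlib 3.10.9 and bedtools 2.31.1 were used, and pairing, motif search and intervals were tested on simulated data.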

Additional observations from a re-analysis of the deposited data

How the results depend on the processing

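Each alternative was compared with the reported value by the SD of the 2 libraries taken alone (n = 2), or by a factor of 1.5 for the count. The number of wide shared footprints was 25504 at a minimum width of 20 bp, 6621 at 30 bp, and 16720 to 40529 in a single library. The promoter share moved to 49.3% at 20 bp, to 38.4% with a promoter window of 500 bp and to 52.1% with 2500 bp, and was 39.3% to 45.6% in a single library; it was below that of narrow footprints except in replicate 1 alone. The CTCF share was 12.1% at 20 bp, 39.7% with 1 mismatch, 25.6% outside promoters and 13.3% in the top quartile of regions, and 10.8% to 14.8% in a single library. REST had an SD of 0.00873 percentage points, so nearly every setting moved it: 0.435% at 20 bp, 0.211% at 30 bp, 0.693% at an overlap of 80%, 1.08% with 1 mismatch, 0.659% outside promoters, 0.238% in the top quartile, and 0.538% to 0.550% in a single library. NFI was 3.01% at 20 bp, 0.906% at 30 bp, 11.035% with 1 mismatch, 2.81% outside promoters and 2.33% to 2.80% in a single library. NRF1 was 1.15% at 20 bp, 2.45% with 1 mismatch, 0.0610% outside promoters, 1.14% in the top quartile and 0.476% to 0.909% in a single library. CTCF and REST were higher in wide than in narrow footprints under all 9 alternatives each, NFI under 8 and NRF1 under 7; the cause of the exceptions was not tested. With the 5′ reach limit at 18 or 22 bp, both added after seeing the data, extended CTCF members were 16.95% and 14.1%. No paired analysis was possible because the 2 libraries belong to 1 group and no groups were compared. Limits: 2 libraries, no deposited depth, footprints without scores, consensus motifs without weights, and reference sequence of 1 parent strain.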
